A study of Homo sapiens with 6 samples.

Results

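The caveolins and cavins are the coat proteins of caveolae, and 5 of their genes were examined among the 27420 genes with a deposited expression value: CAV1, CAV2, PTRF (cavin-1), SDPR (cavin-2) and PRKCDBP (cavin-3). They were picked from the table by gene symbol, without a rule on their values but with earlier results of these data known, and all 5 were listed in each of the 6 libraries. The muscle genes of both families, CAV3 and MURC (cavin-4), were followed as outside members, together with lists of other genes that act at or near caveolae.

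Caveolae are flask-shaped pits of the plasma membrane. Caveolin-1 inserts into the inner leaflet and forms large oligomers, caveolin-2 joins them as a partner, and the soluble cavins bind from the cytoplasm to complete the coat, with cavin-1 as the member that caveolae of most tissues cannot form without. Caveolae are dense in endothelial cells, adipocytes, smooth muscle and fibroblasts, where they buffer membrane tension and gather lipids and signalling proteins, and caveolin-1 has been studied in Ewing sarcoma for its part in tumour growth.

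A673 and SKNMC are established cell lines of Ewing sarcoma, a tumour of bone and soft tissue driven by a fusion of EWSR1 with an ETS gene such as FLI1. THZ1 is a covalent inhibitor of CDK7, a kinase of the general transcription machinery. Cells of either line received DMSO as the vehicle, or THZ1 at 50 nM or 200 nM, and RNA was taken after 6 h, with 1 library for each of the 6 conditions. The groups were therefore A673 with DMSO, A673 with 50 nM THZ1, A673 with 200 nM THZ1, and the same 3 treatments of SKNMC (SKMNC in the sample titles), and each line stands for itself only, not for Ewing sarcoma in general.

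Expression was given as FPKM, a fragment count divided by transcript length and by library size. FPKM is thus a share of a library, so genes can be compared with each other, but a shift in the total RNA of the cells leaves no trace. Without replicates no difference could be set against an error, and no test was made. A gene was counted as tested against DMSO when it exceeded 1 FPKM in the DMSO library of its line, and between lines when it exceeded 1 FPKM in at least 1 of the 2 libraries compared. A log2 difference here is the difference of log2(FPKM + 1), and a gene was called when it differed at least 2-fold on this scale.

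The libraries summed to between 451872 and 462997 FPKM over the listed genes, and between 8776 and 10182 genes were listed at 0. A listed 0 need not mean absence, since EEF1A1, an abundant translation factor, stood at 4400 FPKM in SKNMC with DMSO and at a listed 0 with either THZ1 dose. The number of reads behind a value is unknown. All 8 Ewing sarcoma markers examined, CD99 and NR0B1 among them, exceeded 1 FPKM in all 6 libraries. Among the markers of cell types rich in caveolae, 0 of 5 adipocyte and 0 of 5 muscle markers exceeded 1 FPKM in any library. Of 5 fibroblast markers, 2 exceeded 1 FPKM in A673 and 4 in SKNMC. Of the 5 endothelial markers chosen, PECAM1 was not among the listed genes. Of the other 4, EMCN (endomucin) alone exceeded 1 FPKM, at 25.5 to 30.2 FPKM in A673 and 12.2 to 12.7 FPKM in SKNMC. The defining markers CDH5, VWF and TEK lay between 0 and 0.127 FPKM.

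Caveolin-1 was the most abundant of the members in every library. CAV1 (ENSG00000105974, chr7:116164838-116201233 on hg19, plus strand) measured 1577 FPKM in A673 with DMSO, 1389 with 50 nM and 1470 with 200 nM THZ1. In SKNMC it measured 485 FPKM with DMSO, 259 with 50 nM and 327 with 200 nM THZ1. Every A673 library lay above every SKNMC library, and among the 27420 listed genes CAV1 ranked 10th, 26th and 26th in A673, against 122nd, 241st and 185th in SKNMC. How many of all listed genes separate the lines in this way was not counted, for CAV1 or for the members below. The gene alone made up 0.344% of the listed FPKM of A673 with DMSO and 0.105% of that of SKNMC with DMSO.

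CAV2 (ENSG00000105971, chr7:115927433-116148595 on hg19, plus strand) encodes the caveolin that depends on caveolin-1 to leave the Golgi apparatus and reach the cell surface. It measured 187 FPKM in A673 with DMSO, 112 with 50 nM and 152 with 200 nM THZ1. The SKNMC libraries held 61.3 FPKM with DMSO, 20.5 with 50 nM and 25.7 with 200 nM THZ1. The order of the treatments was the same as for CAV1 in both lines, with DMSO highest and 50 nM lowest, and the ranges of the lines did not overlap. The number of genes with this order was not counted.

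The cavins were far less abundant. PTRF (ENSG00000177469, chr17:40554469-40575535 on hg19, minus strand) measured 34.3, 37.1 and 32.8 FPKM in A673 with DMSO, 50 nM and 200 nM THZ1. The corresponding values in SKNMC were 19.9, 15.6 and 13.7 FPKM. All 3 values of A673 lay above the highest value of SKNMC, as for the caveolins, but the treated libraries of A673 stood on either side of their DMSO library.

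PRKCDBP (ENSG00000170955, chr11:6340175-6341877 on hg19, minus strand) encodes cavin-3, which binds protein kinase C delta and is carried to caveolae by cavin-1. It measured 2.50, 1.72 and 1.24 FPKM in SKNMC with DMSO, 50 nM and 200 nM THZ1. In A673 it measured 0.135 FPKM with DMSO, was listed at 0 with 50 nM and measured 0.0627 FPKM with 200 nM THZ1. Here the lines stood in the opposite order, with every SKNMC library above every A673 library. It was the sole member to be higher in SKNMC.

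SDPR (ENSG00000168497, chr2:192699027-192711981 on hg19, minus strand) encodes cavin-2, which binds phosphatidylserine and helps to bend the membrane. It stayed under 1 FPKM in all 6 libraries and was in no tested set. A673 held 0.567 FPKM with DMSO, 0.265 with 50 nM and 0.0731 with 200 nM THZ1. SKNMC held 0.0679, 0.0214 and 0.0233 FPKM. DMSO was the highest library of either line, but the reads behind values this low are unknown.

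**Figure D1:**
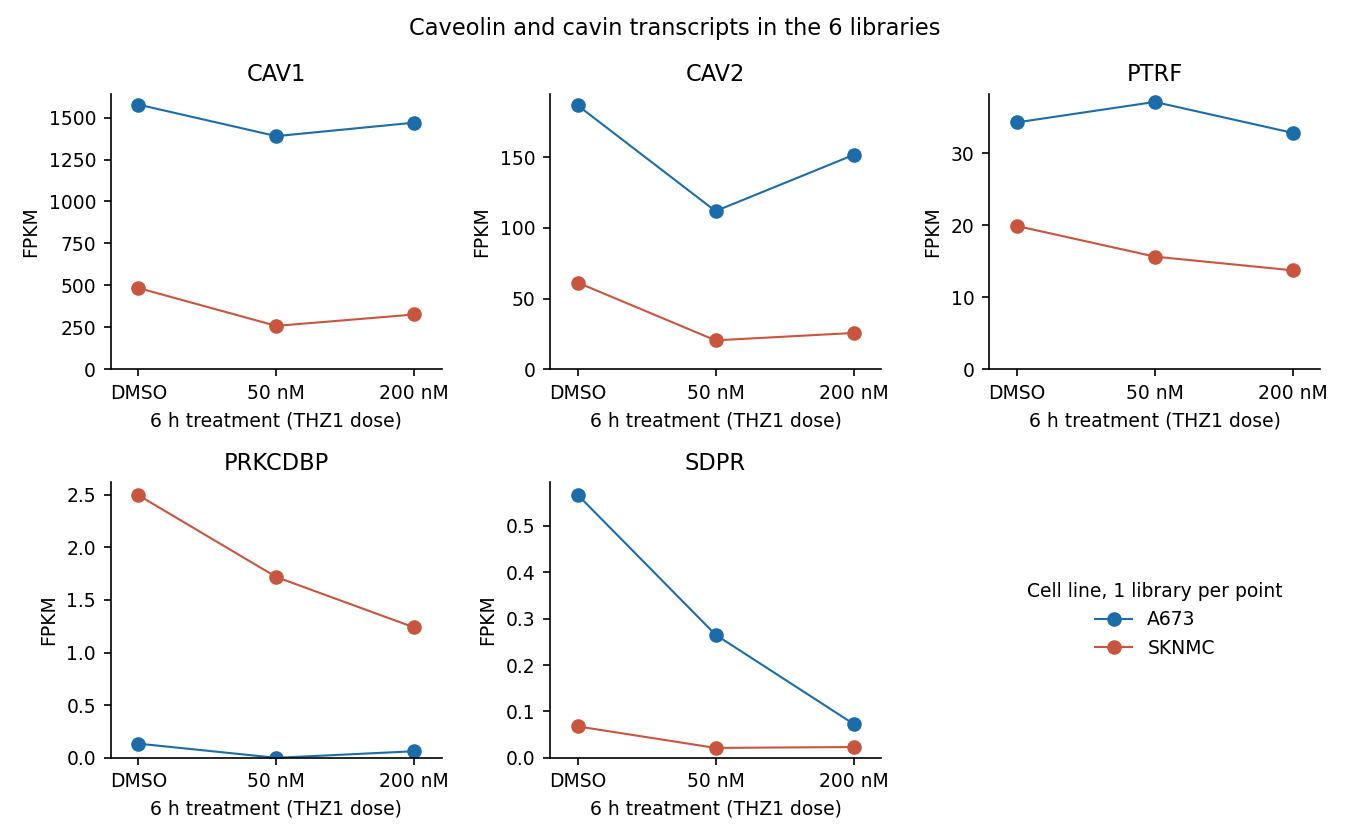
FPKM (vertical axis, linear from 0, a separate scale for each gene) of the 5 members in the 6 libraries, by 6 h treatment on the horizontal axis; each point is 1 library and lines join the libraries of A673 (blue) or SKNMC (red). CAV1, CAV2 and PTRF lie higher in all A673 libraries, PRKCDBP lies higher in all SKNMC libraries, and SDPR stays below 1 FPKM. The share of all genes with such a separation was not counted.

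The muscle members showed a different picture. CAV3, the caveolin of the muscle sarcolemma, lay between 0 and 0.0524 FPKM. MURC, the cavin of heart and skeletal muscle, measured 1.17, 1.52 and 1.54 FPKM in A673 and 1.16, 1.85 and 2.10 FPKM in SKNMC with DMSO, 50 nM and 200 nM THZ1. It was higher than DMSO in all 4 THZ1 libraries, by 0.22 and 0.23 log2 units in A673 and by 0.40 and 0.52 in SKNMC, and kept this direction under each scaling tried. All of these values are close to the limit of 1 FPKM. How many of all genes lay on the same side of DMSO in all 4 THZ1 libraries was not counted, for MURC or for the genes named below.

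Summed over the 5 members, the caveolar coat transcripts of A673 came to 1799 FPKM with DMSO, 1539 with 50 nM and 1654 with 200 nM THZ1. The sums of SKNMC were 569, 297 and 367 FPKM. CAV1 made up 85.3% to 90.3% of the sum in the 6 libraries, and both caveolins together 94.1% to 98.1%. The composition of the coat at transcript level was thus dominated by CAV1 in every condition, and the sums followed CAV1 in their order.

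The first comparison asked how THZ1 altered these genes within a line, against a background in which many genes were lower. In A673, 0 of the 3 tested members, CAV1, CAV2 and PTRF, were at least 2-fold lower at 50 nM, where 15.9% of all tested genes were, and 0 of 3 at 200 nM, where 25.3% were. In SKNMC, 1 of 4 tested members, CAV2, was at least 2-fold lower at 50 nM, where 15.8% of all tested genes were, and the same gene at 200 nM, where 27.3% were. No tested member was at least 2-fold higher in any THZ1 library, and the shares of all tested genes that were higher came to 0.343% and 0.126% in A673 and 0.471% and 0.462% in SKNMC at 50 nM and 200 nM. With so few members these counts are no departure from the background that could be tested.

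CAV2 differed most from DMSO among the tested members. In SKNMC it stood at 33.4% of its DMSO level with 50 nM THZ1, a log2 difference of -1.54, and 4.59% of the tested genes of that comparison had a lower value. With 200 nM it stood at 41.9% of DMSO, a log2 difference of -1.22, with 18.9% of the tested genes lower. In A673 CAV2 stood at 59.9% and 81.2% of DMSO, log2 differences of -0.73 and -0.30. CAV2 was lower than DMSO in all 4 THZ1 libraries under every scaling tried, but the size of the difference depended on the scaling. When libraries were scaled by the 75th percentile of their expressed genes, the difference in SKNMC with 200 nM was -0.80, short of 2-fold. That in A673 with 200 nM was then -0.07.

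CAV1 stood at 53.4% of DMSO in SKNMC with 50 nM THZ1 and at 67.4% with 200 nM, log2 differences of -0.90 and -0.57. Scaled by the ribosomal protein genes, the same values became -1.24 and -1.13, beyond 2-fold, and under 75th percentile scaling they became -0.73 and -0.13. In A673 CAV1 stood at 88.1% and 93.2% of DMSO, log2 differences of -0.18 and -0.10, the latter turning to 0.13 under 75th percentile scaling. The value in A673 with 50 nM lay above 56.3% of the tested genes and that with 200 nM above 64.8%, which places CAV1 of A673 in the upper part of a distribution centred below 0. In pooled RNA a smaller number of expressing cells and less transcript per cell cannot be told apart.

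Of the epithelial markers, KRT8 and KRT18 exceeded 1 FPKM in all libraries, and the list of 5 summed to 156 FPKM in SKNMC with DMSO and to 90.9 and 86.4 FPKM with 50 nM and 200 nM THZ1. In A673 that sum stayed between 125 and 137 FPKM. EPCAM, CDH1 and KRT19 lay below 1 FPKM throughout, and the part of this list in the CAV1 and CAV2 values was not tested.

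PTRF, the gene for cavin-1, differed little in A673. The log2 differences in A673 were 0.11 at 50 nM and -0.06 at 200 nM, the former turning to -0.11 under ribosomal protein scaling and the latter to 0.17 under 75th percentile scaling. In SKNMC they were -0.33 and -0.50, at 78.6% and 69.0% of DMSO. These 2 differences became -0.63 and -0.998 under ribosomal protein scaling, and -0.17 and -0.09 under 75th percentile scaling. PRKCDBP in SKNMC stood at 68.8% and 49.6% of DMSO, log2 differences of -0.36 and -0.64 on a scale that shortens differences of genes this low. Without the added 1 the latter difference came to -1.01.

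The median log2 difference of the tested members in A673 was -0.18 at 50 nM and -0.10 at 200 nM, beside -0.27 and -0.40 over all tested genes. In SKNMC the median of the members was -0.63 at 50 nM and -0.61 at 200 nM, beside -0.32 and -0.55 over all tested genes. The median of the members thus lay above that of all genes in A673 and below it in SKNMC, by amounts that cannot be set against an error, and single members stood on the other side, CAV2 at -0.73 in A673 at 50 nM and PTRF at -0.50 in SKNMC at 200 nM among them. Scaling by the 75th percentile moved the median of all tested genes by between 0.13 and 0.36 log2 units in these comparisons, and scaling by the ribosomal protein genes by between -0.39 and -0.19.

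**Figure D2:**
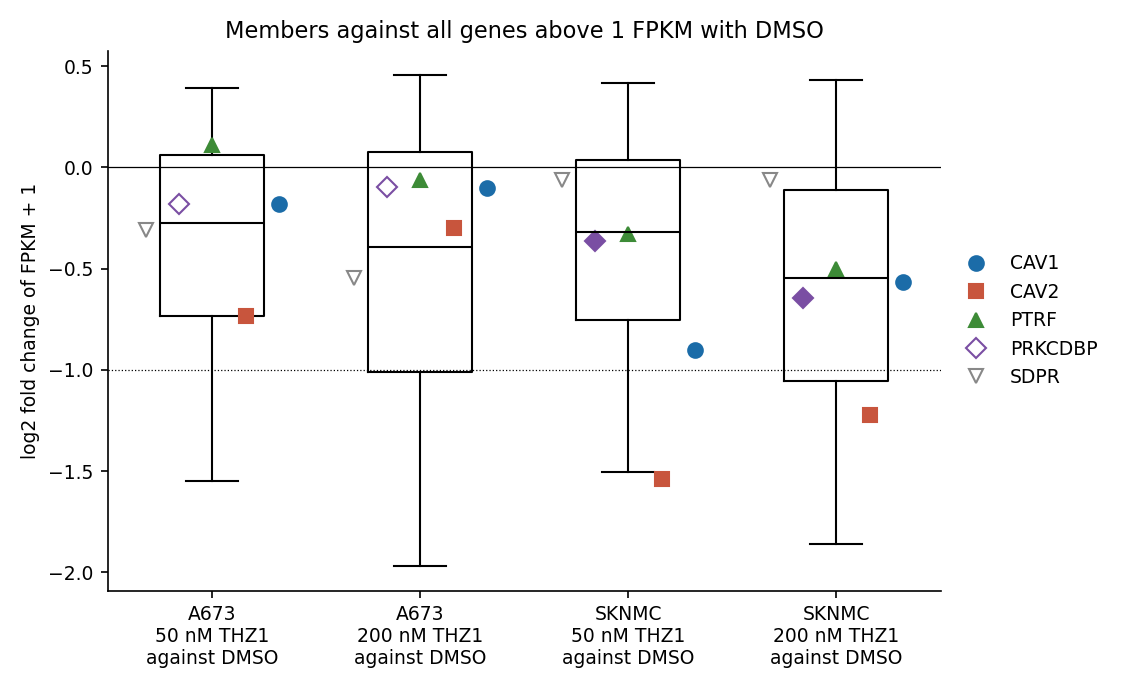
Log2 difference of FPKM + 1 (vertical axis) between a THZ1 library and DMSO of the same cell line, with boxes for all genes above 1 FPKM with DMSO (box: 25th to 75th percentile, line: median, whiskers: 5th and 95th percentile) and symbols for the members. Open symbols are members at or below 1 FPKM with DMSO in that line, the dotted line marks a 2-fold decrease, and CAV2 of SKNMC, at -1.54 and -1.22, is the only filled symbol below it.

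The second comparison was the order of the doses. In A673, 2 of 3 tested members, CAV1 and CAV2, were higher at 200 nM than at 50 nM, where 48.3% of all tested genes were. In SKNMC the same pair out of 4 tested members was higher, where 37.9% of all tested genes were. For CAV2 the log2 difference of 200 nM against 50 nM was 0.43 in A673, with 93.2% of the tested genes lower, and 0.31 in SKNMC, with 86.5% lower. For CAV1 it was 0.08 in A673, turning to -0.05 under ribosomal protein scaling, and 0.34 in SKNMC. The cavins stood the other way, with -0.17 in A673 and -0.18 in SKNMC for PTRF, the latter turning to 0.08 under 75th percentile scaling, and -0.28 in SKNMC for PRKCDBP. These counts of single libraries lie near the shares of all tested genes and were not tested.

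Ratios within a library do not depend on its scaling. CAV2 amounted to 11.8% of CAV1 in A673 with DMSO, 8.05% with 50 nM and 10.3% with 200 nM THZ1. In SKNMC it amounted to 12.7%, 7.91% and 7.87%. With DMSO the lines were close in this ratio in spite of their different levels, and in all 4 THZ1 libraries CAV2 was lower relative to CAV1 than in the DMSO library of the line.

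PTRF relative to CAV1 went the other way at 50 nM. It amounted to 2.17%, 2.67% and 2.23% of CAV1 in A673 and to 4.11%, 6.04% and 4.20% in SKNMC, with DMSO, 50 nM and 200 nM. Each SKNMC library thus held more PTRF per CAV1 than any A673 library. Transcript ratios give no measure of how many molecules of each protein a caveola holds.

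**Figure D3:**
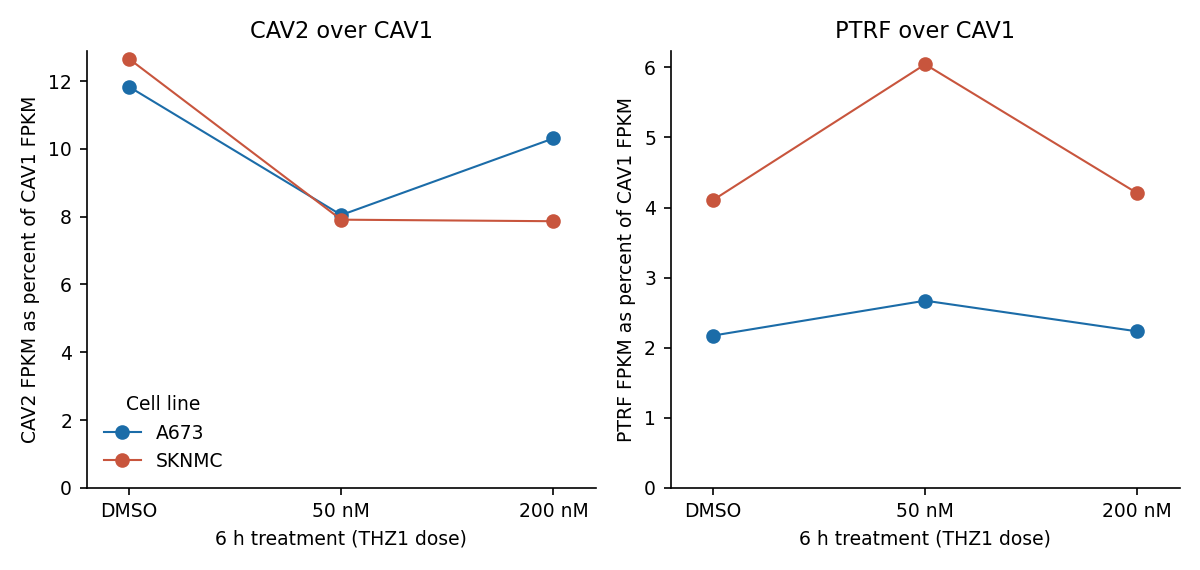
FPKM of CAV2 (left) and of PTRF (right) as a percent of CAV1 FPKM in the same library (vertical axes, linear from 0) by 6 h treatment; each point is 1 library. CAV2 per CAV1 is 11.8% and 12.7% with DMSO and between 7.87% and 10.3% in the 4 THZ1 libraries, and PTRF per CAV1 is highest at 50 nM in both lines.

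The third comparison was between the lines at the same treatment. With DMSO, 2 of the 4 tested members, CAV1 and CAV2, were at least 2-fold higher in A673, where 8.42% of all tested genes were. At 50 nM 3 of 4, with PTRF added, were at least 2-fold higher in A673, where 9.91% of all tested genes were, and at 200 nM the same 3 of 4, where 12.4% were. PRKCDBP was at least 2-fold higher in SKNMC at each treatment, where 15.0%, 14.1% and 13.1% of all tested genes were with DMSO, 50 nM and 200 nM. It stayed below 1 FPKM in A673 and was in these tested sets only through SKNMC, the line where it was higher. Its direction there was thus fixed by the rule for tested genes.

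CAV1 was 3.25-fold higher in A673 than in SKNMC with DMSO, 5.37-fold higher with 50 nM and 4.50-fold higher with 200 nM THZ1, as ratios of FPKM. CAV2 was 3.04-fold, 5.46-fold and 5.90-fold higher. On the log2 scale their differences with DMSO were 1.70 and 1.59, with 96.8% and 96.4% of the tested genes lower. The gap between the lines was wider in both treated pairs than with DMSO for both caveolins, and no scaling turned its direction.

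PTRF was 1.72-fold higher in A673 with DMSO, 2.37-fold with 50 nM and 2.39-fold with 200 nM THZ1. Whether it passed 2-fold depended on the scaling, since its log2 difference with DMSO, 0.75, became 1.18 under ribosomal protein scaling, and that at 200 nM, 1.20, became 0.84 under 75th percentile scaling. PRKCDBP was 18.5-fold higher in SKNMC with DMSO and 19.8-fold higher with 200 nM as ratios of FPKM, while A673 was listed at 0 with 50 nM. Its log2 differences of A673 against SKNMC were -1.62, -1.44 and -1.07 with DMSO, 50 nM and 200 nM, and under ribosomal protein scaling those at 50 nM and 200 nM were -0.99 and -0.62, short of 2-fold.

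Other cell type markers also differed between the lines. The 5 fibroblast markers summed to 78.0 to 94.9 FPKM in A673, where 2 of 5 exceeded 1 FPKM, and to 103 to 163 FPKM in SKNMC, where 4 of 5 did. Among them THY1 was higher in A673 and DCN, LUM and COL1A1 were higher in SKNMC. Of 5 leukocyte markers PTPRC alone exceeded 1 FPKM, at 7.90 to 13.1 FPKM in SKNMC, and none did in A673. The part of these genes, and of EMCN, in the caveolin levels was not tested.

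CAV2 and CAV1 are neighbours on the same strand, with 16242 bases between the end of CAV2 and the start of CAV1 on hg19. The other genes listed within 500 kb of either side numbered 9, of which 5 exceeded 1 FPKM in at least 1 library: TFEC, TES, MET, CAPZA2 and ST7. The remaining 4, ST7-OT4, AC006159.3, AC106873.4 and RP11-458K10.3, did not. On the log2(FPKM + 1) scale none of these 5 neighbours was at least 2-fold lower in a THZ1 library. CAV2 alone of the 7 expressed genes was, in SKNMC, where 15.8% and 27.3% of all tested genes were at 50 nM and 200 nM. In A673 the shares of all tested genes were 15.9% and 25.3%. TES in SKNMC at 200 nM passed 2-fold under ribosomal protein scaling, at -1.50. As plain FPKM, 2 low genes also passed 2-fold. TFEC went from 1.17 to 0.508 FPKM in A673 with 200 nM, and from 0.570 to 0.249 and 0.221 FPKM in SKNMC with 50 nM and 200 nM. MET went from 3.98 to 1.94 FPKM in SKNMC with 200 nM.

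TES, a LIM domain protein of focal adhesions that lies on the far side of CAV2, differed by 0.17 and -0.42 log2 units in A673 and by -0.12 and -0.97 in SKNMC at 50 nM and 200 nM, where 0.17 turned to -0.05 under ribosomal protein scaling and -0.12 to 0.05 under 75th percentile scaling. It was lower at 200 nM than at 50 nM in both lines, the order opposite to that of CAV1 and CAV2. MET, the receptor of hepatocyte growth factor on the far side of CAV1, differed by -0.08 and -0.45 in A673, the former turning to 0.01 under 75th percentile scaling, and by -0.44 and -0.76 in SKNMC. CAPZA2, a subunit of the actin capping protein, differed by 0.54 and -0.03 in A673 and by 0.27 and -0.32 in SKNMC. Its direction at 50 nM in SKNMC turned under ribosomal protein scaling, and that at 200 nM in both lines under 75th percentile scaling.

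ST7 measured 14.3 to 30.7 FPKM and lay between -0.18 and 0.15 in the 4 comparisons with DMSO, each of which turned in direction under 1 scaling or another. TFEC, a transcription factor of the MiT family, stood at 1.17 FPKM in A673 with DMSO and below 1 FPKM in the other 5 libraries. Between the lines with DMSO, TES differed by 0.07, turning to -0.10 under 75th percentile scaling, whereas MET, CAPZA2 and ST7 were higher in SKNMC by log2 differences of A673 against SKNMC of -0.93, -0.68 and -0.73. CAV1 and CAV2 of this locus stood at 1.70 and 1.59 in the same comparison.

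**Figure D4:**
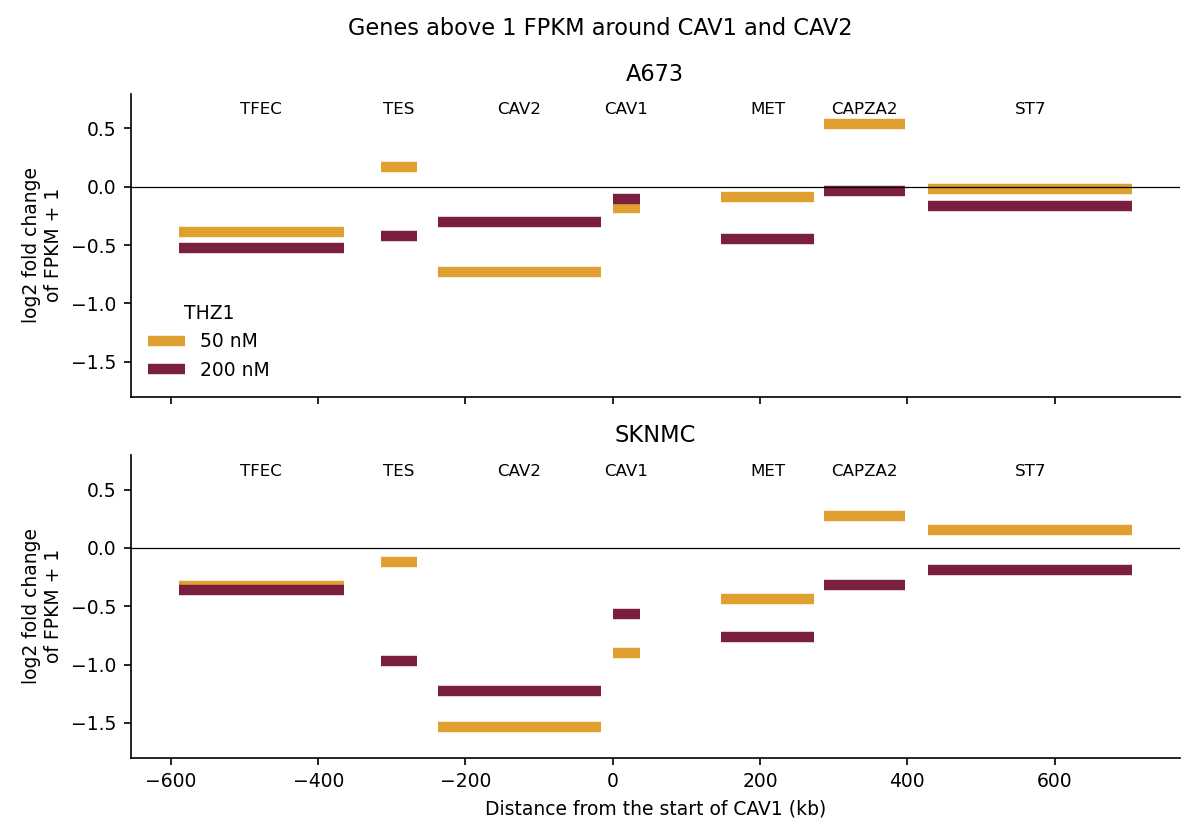
Log2 difference of FPKM + 1 against DMSO (vertical axis) of the 7 genes above 1 FPKM in at least 1 library around CAV1 and CAV2, drawn at their spans relative to the start of CAV1 in kb (horizontal axis), for A673 (top) and SKNMC (bottom). Orange bars are 50 nM and dark bars 200 nM THZ1; in SKNMC the CAV2 bars lie lowest, at -1.54 and -1.22, and the 50 nM bar lies below the 200 nM bar for CAV2 and CAV1 only.

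The promoters of this pair of neighbours, which differed from DMSO in the same direction in SKNMC, are shown for the letters they hold. They are the 250 bases before the most upstream RefSeq start of each gene on GRCh38.p14, chr7:116524759-116525008 for CAV1 and chr7:116499488-116499737 for CAV2, both on the plus strand. This RefSeq start of CAV2 is not the start of the span whose FPKM is given, which lies at -237 kb from the start of CAV1 on hg19. The 2 windows lie far closer together, so that of CAV2 falls within the measured span and not before it. Capitals mark GC boxes (GGGCGG) and a repeat of GGAA (GGAAGGAA) on either strand, so that CCGCCC and TTCCTTCC are the same motifs read on the minus strand.
CAV1: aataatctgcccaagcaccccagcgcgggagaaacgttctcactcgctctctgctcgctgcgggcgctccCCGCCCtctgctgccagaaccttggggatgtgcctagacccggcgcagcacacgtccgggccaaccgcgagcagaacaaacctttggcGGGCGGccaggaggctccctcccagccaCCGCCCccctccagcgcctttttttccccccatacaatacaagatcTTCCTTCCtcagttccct
CAV2: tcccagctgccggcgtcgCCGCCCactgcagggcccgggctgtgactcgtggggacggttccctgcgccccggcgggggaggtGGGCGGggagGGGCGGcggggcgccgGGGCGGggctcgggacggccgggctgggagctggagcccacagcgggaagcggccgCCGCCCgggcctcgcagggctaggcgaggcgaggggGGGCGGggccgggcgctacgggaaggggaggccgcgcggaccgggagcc

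The CAV1 promoter held 3 GC boxes, letters bound by factors of the SP family, and the CAV2 promoter held 6. At least 1 GC box was present in 42.2% of 27305 promoters of the same length, and the shares with as many as 3 or 6 were not counted. The GGAA repeat, the kind of element that the EWSR1-FLI1 fusion is known to bind when it is repeated many times, was found once in the CAV1 promoter, 18 to 11 bases before the start on the minus strand, and not in the CAV2 promoter. It was present in 2.99% of all promoters. A match describes the letters of the window, not binding.

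GC content was 63.6% in the CAV1 promoter and 83.2% in that of CAV2, beside a median of 57.6% over all promoters, and 64.5% and 99.0% of promoters had a lower one. A TATA box (TATAAA), an AP-1 site (TGANTCA) and a TEAD site (GGAATG), present in 11.2%, 6.57% and 12.0% of all promoters, were found in neither. Of the 5 members 3 had a promoter entry. That of SDPR, listed in RefSeq as CAVIN2, had a GC content of 48.0% and held 1 TEAD site and none of the other motifs.

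The annotation around the members limits what their values mean. GENCODE 44 on GRCh37 lists 15 transcripts for CAV2 over 221162 bases and 9 for CAV1 over 36186 bases, and an FPKM per gene does not say which of them was present. Antisense long non-coding RNAs overlap CAV1, CAV2, SDPR and PRKCDBP, and a long non-coding RNA on the same strand overlaps PTRF. None of these is among the genes examined here, and since the sources used here do not state whether reads were counted by strand, reads of a member and of an overlapping gene cannot be told apart.

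EHD ATPases, PACSIN proteins and dynamins act at the neck of caveolae and in membrane bending. None of the 7 tested genes of this list of 10 was at least 2-fold lower in A673 at either dose. Of all tested genes of A673, 15.9% were at 50 nM and 25.3% at 200 nM. In SKNMC 4 of 8 tested genes were at 50 nM and 3 of 8 at 200 nM, beside 15.8% and 27.3% of all tested genes. The median log2 difference was -0.47 and -0.10 in A673 and -0.64 and -0.83 in SKNMC, at 50 nM and 200 nM, where the medians of all tested genes were -0.27, -0.40, -0.32 and -0.55. The gene of this list with the highest level, DNM2, a dynamin that cuts vesicles from the membrane, measured 45.1 FPKM in A673 and 33.0 FPKM in SKNMC with DMSO and lay between -0.23 and 0.05 in the 4 comparisons.

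The genes called in SKNMC were singled out after their values were seen. EHD2, the ATPase that forms a ring around the caveolar neck, measured 9.35, 3.47 and 4.97 FPKM in SKNMC with DMSO, 50 nM and 200 nM, log2 differences of -1.21 and -0.80. Its values in A673 were 12.6, 8.81 and 12.7 FPKM, so that 50 nM was the lowest library of either line, as for CAV1 and CAV2. How many genes share this order was not counted. Of all tested genes, 48.3% in A673 and 37.9% in SKNMC were higher at 200 nM than at 50 nM. PACSIN3, an F-BAR protein that curves membranes, measured 11.7, 5.10 and 4.77 FPKM in SKNMC and 21.4, 13.7 and 20.0 FPKM in A673.

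EHD4, a relative of EHD2, differed by -1.13 and -1.49 in SKNMC, and EHD3 by -1.20 and -0.87. EHD1, an ATPase of recycling endosomes, differed by 0.08 at 50 nM, turning to -0.24 under ribosomal protein scaling, and by -1.38 at 200 nM. Under 75th percentile scaling PACSIN3 at both doses and EHD1 at 200 nM did not reach 2-fold in SKNMC, at -0.92, -0.77 and -0.99. No tested gene of this list was at least 2-fold higher than with DMSO, where between 0.126% and 0.471% of all tested genes were.

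Of the 6 genes of the caveolar anchor and of kinases and receptors known to bind caveolins or cavins, 0 were at least 2-fold lower at 50 nM in either line, 2 were at 200 nM in A673 and 3 at 200 nM in SKNMC. Of all tested genes 15.9% and 15.8% were at 50 nM in A673 and SKNMC, and 25.3% and 27.3% at 200 nM. The medians were -0.10 and -0.46 in A673 and 0.05 and -0.92 in SKNMC, to be read beside the same medians of all tested genes, as are those of the next lists. ABL1, a tyrosine kinase of stress fibre control, measured 27.3, 24.9 and 6.35 FPKM in A673 and 23.5, 23.3 and 9.82 FPKM in SKNMC with DMSO, 50 nM and 200 nM. It was low in the 200 nM libraries only, at -1.94 in A673 and -1.18 in SKNMC, the latter -0.78 under 75th percentile scaling.

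SRC, the kinase that phosphorylates caveolin-1, differed at 200 nM by -1.14 in A673 and -1.56 in SKNMC, where it stood at 1.10 and 3.26 FPKM. PRKCD, the kinase that cavin-3 binds, was lower in SKNMC at 200 nM by a log2 difference of -1.74; it was chosen with that value known. FLNA, the actin crosslinker that ties caveolae to stress fibres, was the most abundant of the list. It measured 248, 372 and 318 FPKM in A673 and 201, 240 and 278 FPKM in SKNMC, above DMSO in all 4 THZ1 libraries, a direction that turned in SKNMC at both doses under ribosomal protein scaling.

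Flotillins and stomatins form membrane domains of their own without caveolins. Of 5 tested genes of this list of 6, 1 was at least 2-fold lower, STOML1 in SKNMC at 50 nM with -1.42 (a gene picked for its value), and 0 in the other 3 comparisons, beside 15.8% of all tested genes in SKNMC at 50 nM and 15.9%, 25.3% and 27.3% in the others. The medians were -0.22 and 0.09 in A673 and -0.44 and -0.36 in SKNMC. STOML2, a mitochondrial member and the most abundant, measured 90.5, 77.6 and 96.3 FPKM in A673 and 66.1, 48.4 and 53.3 FPKM in SKNMC. As for CAV2, its lowest library of either line was that with 50 nM. A higher value at 200 nM than at 50 nM was common, in 48.3% of all tested genes in A673 and 37.9% in SKNMC.

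Clathrin-coated pits are the other major coat of the plasma membrane. Of 13 clathrin coat and adaptor genes, 12 were tested in A673 and 13 in SKNMC, and 1 was at least 2-fold lower, DAB2 in A673 at 200 nM with -1.48 (again picked for its value), where 25.3% of all tested genes were. None was in the other 3 comparisons, where 15.9%, 15.8% and 27.3% of all tested genes were. The medians were 0.05 and 0.15 in A673 and -0.04 and -0.19 in SKNMC, at 50 nM and 200 nM. AP2M1, the adaptor subunit that reads tyrosine signals and the most abundant of the list, measured 260, 298 and 343 FPKM in A673 and 213, 252 and 290 FPKM in SKNMC. It was above DMSO in all 4 THZ1 libraries, a direction that turned under ribosomal protein scaling in all but A673 at 200 nM. No tested gene of this list, nor of the flotillins and stomatins or of the anchor genes, was at least 2-fold higher than with DMSO. Between 0.126% and 0.471% of all tested genes were.

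**Figure D5:**
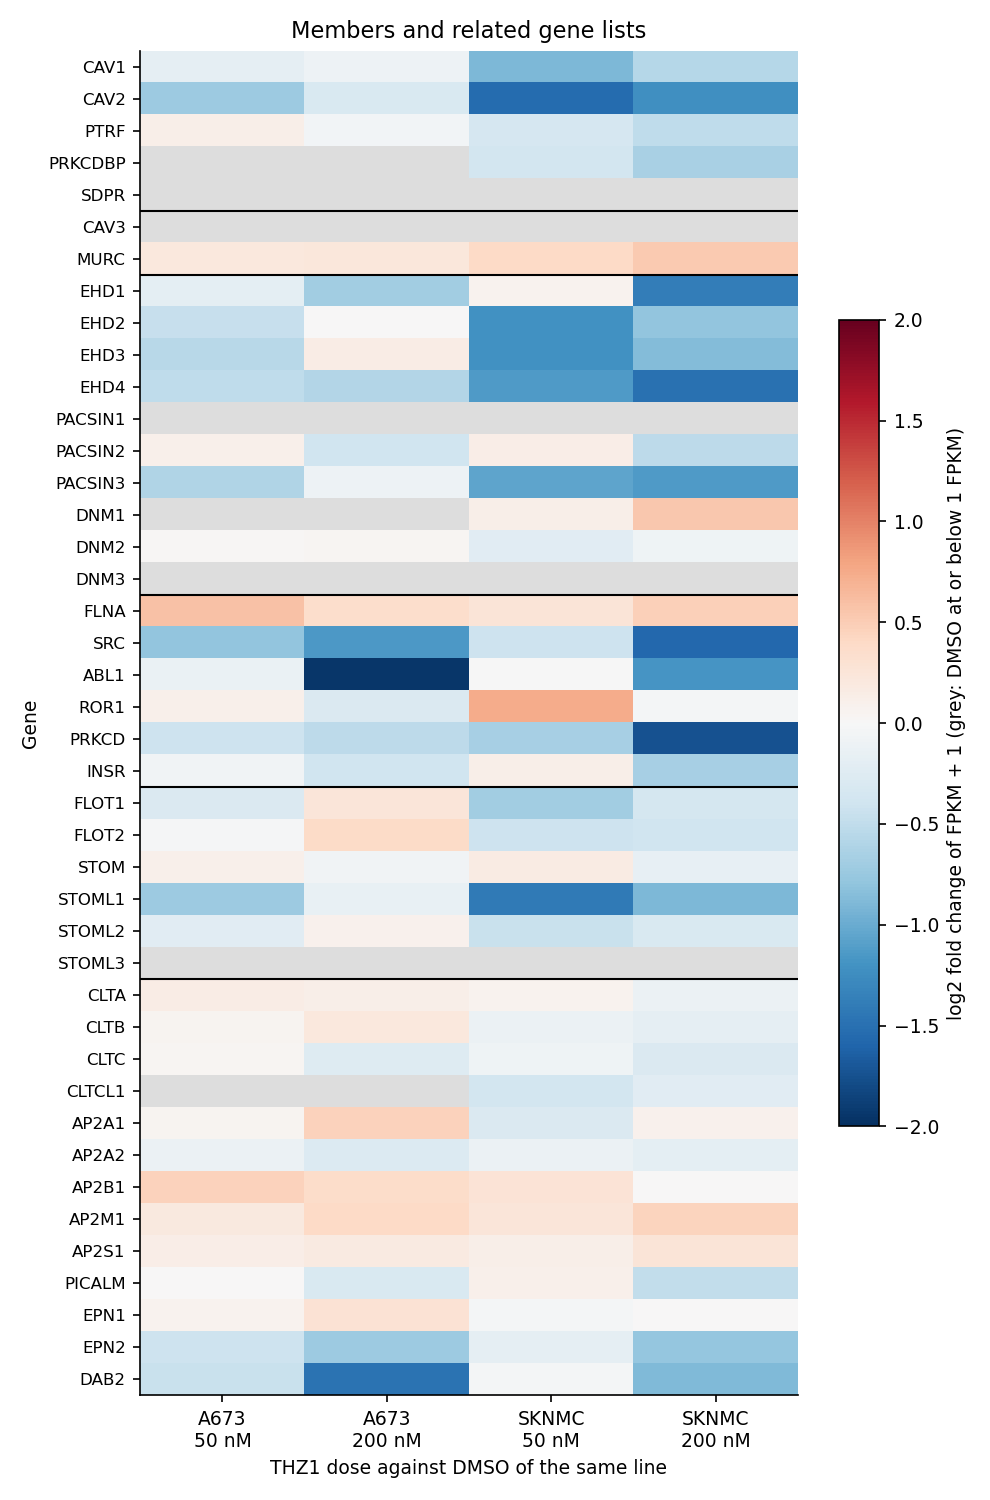
Log2 difference of FPKM + 1 against DMSO (colour, blue lower and red higher) for the members, CAV3 and MURC, and the lists of neck and curvature, anchoring and signalling, flotillin and stomatin, and clathrin genes (blocks from top to bottom), in the 4 comparisons (columns). Grey fields are genes at or below 1 FPKM with DMSO; CAV2 is darkest among the members in SKNMC, and ABL1 in A673 at 200 nM, at -1.94, is the darkest field of all.

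The genes whose pattern over the 6 libraries was most like that of a member were sought among protein-coding genes with a mean of at least 10 FPKM, by the root mean square difference of log2(FPKM + 1) after each gene was centred on its own mean. For CAV1 the closest of 6045 candidates were KIFC3, a kinesin motor, at 0.0740, MYO1C, a membrane-bound myosin, at 0.0849, and PCDHGC3, a protocadherin, at 0.115. KIFC3 measured 67.0, 53.4 and 63.0 FPKM in A673 and 20.4, 11.1 and 12.9 FPKM in SKNMC. CAV2 came 40th for CAV1, at 0.271, and CAV1 came 9th for CAV2.

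For CAV2 the closest were SFXN4, a mitochondrial sideroflexin, at 0.135, HMGA2, an architectural chromatin protein, at 0.212, and CYYR1 at 0.213. SFXN4 measured 45.7, 29.9 and 40.0 FPKM in A673 and 15.5, 6.18 and 5.99 FPKM in SKNMC. For PTRF they were ABCC4, a drug efflux pump, at 0.0713, EBNA1BP2, a nucleolar protein, at 0.0763, and POC1B, a centriole protein, at 0.0772. CAV1 came 2751st for PTRF, while PTRF came 373rd for CAV1, at the same difference of 0.561.

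For PRKCDBP the closest of 6046 candidates were SPATS2L at 0.0825, MAPKAPK3, a stress-activated kinase, at 0.0917, and EPDR1 at 0.0937, all of them higher in SKNMC. This likeness rests on the added 1, which shortens the difference of a gene as low as PRKCDBP. Without it the log2 difference of PRKCDBP between the lines with DMSO was -4.21. SPATS2L was far higher, at 6.62 FPKM in A673 and 26.2 FPKM in SKNMC with DMSO. With 6 libraries, and the difference between the lines carrying much of each pattern, these are descriptions of likeness only. SDPR was not searched, since it exceeded 1 FPKM in no library.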

How the data were processed

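RNA-seq values of 6 libraries, 1 for each of 3 treatments of A673 and of SKNMC cells, were analysed, with groups taken from the sample labels. The authors prepared TruSeq libraries, read 100-bp paired ends, aligned them to hg19 (GRCh37) with STAR using Ensembl 75 and deposited FPKM values. Their methods name StringTie for FPKM and the submitters' processing notes name Cufflinks. Versions and strand use are not given in the sources used here. Although the deposited table is titled as an average, GEO's labels name a single library for every condition, and columns were handled accordingly as 1 library each. Columns with log2 fold changes of THZ1 over DMSO, deposited by the authors, were not used.

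Log2 differences were computed from FPKM with a pseudocount of 1. This understates differences of low genes. Thresholds were 1 FPKM and 2-fold, and no test was made. Depth is unknown from FPKM, so no counting interval was given. The members, gene lists, named genes and alternatives were chosen with earlier results of these data known. Named genes were the members, CAV3 and MURC, the most abundant gene of each list and those called alike in both lines at the same dose, genes within 500 kb of CAV1 and CAV2, and the 3 genes nearest in pattern to each member above 1 FPKM in any library. Genes named outside this rule are said to be.

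Alternatives were a pseudocount of 0.1, none with zeros left out, other definitions of tested genes, a 1.5-fold threshold, and scaling to a common sum, to the 75th percentile of expressed genes or to the median of the ribosomal protein genes. With no replicates, a value was counted as moved when it shifted by over 1.5-fold or crossed 2-fold. Promoters came from RefSeq on GRCh38.p14, in which 3 of 5 members were matched, and PTRF and PRKCDBP were not. The log2 difference step alone was run on simulated data, which were made on the same log2 scale, and the other steps were not tested. Python 3.11.15, pandas 2.3.3, numpy 2.4.6 and matplotlib 3.10.9 were used.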

Additional observations from a re-analysis of the deposited data

Results flagged for a closer look

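PTRF, the gene for cavin-1, stood on opposite sides of DMSO at 50 nM THZ1, with a log2 difference of 0.11 in A673 and -0.33 in SKNMC, so that the lines were 0.44 log2 units apart. With 1 library per condition this difference between the lines was not tested, and under ribosomal protein scaling the value of A673 turned to -0.11.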

How the results depend on the processing

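No paired analysis was possible because the labels give 1 library per condition and no replicate numbers, and no library could be left out for the same reason. No alternative turned the direction of a called member. Of 79 counts of members under the alternatives, 71 stayed within 1.5 times the reported count and 8 did not. The counts with protein-coding genes alone could not change, since every tested member is protein-coding. A count that went from 2 to 3 or from 3 to 2, as when PTRF entered or left the calls between the lines, was taken as staying. The count of members at least 2-fold lower in SKNMC at 200 nM, reported as 1, was 2 without a pseudocount, 0 under 75th percentile scaling, 2 under ribosomal protein scaling and 2 at a 1.5-fold threshold. That in SKNMC at 50 nM was 2 under ribosomal protein scaling and 2 at 1.5-fold, that in A673 at 50 nM was 1 at 1.5-fold, and the count higher at 200 nM than at 50 nM in A673 was 1 under ribosomal protein scaling. Of 222 log2 differences of members, 192 stayed and 30 moved, among them the low values of SDPR and PRKCDBP with a smaller or no pseudocount.

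The share of all tested genes at least 2-fold lower in SKNMC at 200 nM, 27.3%, was 16.7% under 75th percentile scaling and 45.9% under ribosomal protein scaling. At 1.5-fold the shares in A673 and SKNMC were 31.8% and 33.5% at 50 nM and 41.1% and 48.0% at 200 nM, and over all listed genes they were 6.41%, 6.84%, 10.2% and 11.8%. The shares at least 2-fold higher in A673 with DMSO, 50 nM and 200 nM were 16.6%, 21.1% and 27.5% under ribosomal protein scaling, 17.6%, 20.1% and 24.3% at 1.5-fold and 3.81%, 4.20% and 5.27% over all listed genes, and 7.68% at 200 nM under 75th percentile scaling. The share higher at 200 nM than at 50 nM in SKNMC was 21.9% under ribosomal protein scaling. Between the lines, 75th percentile scaling moved the median of all tested genes by -0.16, -0.17 and -0.34 log2 units with DMSO, 50 nM and 200 nM, and ribosomal protein scaling by 0.41, 0.48 and 0.52. Which scaling is closest to RNA per cell was not tested.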
